A study of Mus musculus with 6 samples.

Results

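Trp53 encodes p53, the transcription factor that responds to DNA damage and other stress. The 10 genes described here are Trp53, its inhibitors Mdm2 and Mdm4, and 7 genes that p53 is known to switch on, Ccng1, Sesn1, Zmat3, Phlda3, Trp53inp1, Aen and Rrm2b. They were found by symbol in the deposited expression table, where each of the 10 names matched 1 of 54532 genes. The question was whether the Trp53 transcript, its inhibitors or its classical targets differed in the heart when Mc4r, the melanocortin-4 receptor gene, was deleted. Hearts were taken at 12 weeks of age, 3 from WT and 3 from Mc4r KO animals, and each mouse gave 1 library. Both groups were littermates from matings of heterozygotes on a C57B/6/N background, all fed standard chow, and the KO mice were homozygous for the deletion. No driver that would restrict the deletion to the heart is described. The study's text names male mice for its measurements of heart function and does not give the sex of the sequenced mice separately. The sample titles name muscle, another label names heart, and the study's text names left ventricle.

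Expression was given as FPKM, a count scaled to gene length and to a constant of each library, which allows levels of different genes to be compared per length. For each of the 10 this length joins the exons of all annotated transcripts, whether or not each is used in the heart. Orders of level between genes depend on it. The constant of each library did not follow the reads on genes alone. FPKM times gene length per read was 64.4 in Mc4r KO replicate 1 and 70.9 in WT replicate 1, although the former had fewer reads. The median-of-ratios factor was 1.00583 in every library, so the deposited values were already level by that measure. The reads on genes numbered 14767929 to 16047003 per WT library and 14691076 to 15649074 per Mc4r KO library. The sequencing was paired-end, and whether each of these reads stands for a read pair is not given. Mitochondrial transcripts took 47.1% to 59.3% of the summed FPKM in WT and 43.0% to 46.6% in Mc4r KO. Mc4r itself had 2 reads in WT replicate 3 and 0 in the other 5 libraries, so the genotype could not be checked from its transcript. The 6 cardiomyocyte markers summed to 11819 to 12341 FPKM in WT and 14412 to 15909 in Mc4r KO, without overlap. By estimate 5 of them were higher and 1 lower. The 4 skeletal muscle markers summed to at most 1.27 FPKM, with Myh4 at 0 reads throughout. The 3 atrial markers varied, from 0.424 to 433 in WT and from 0.824 to 55.4 in Mc4r KO, with the highest sum in WT replicate 3, and without that library 632 genes were called in place of 83. Summed markers of endothelium (105 to 136 FPKM in WT, 110 to 133 in Mc4r KO), smooth muscle (41.4 to 71.2 and 37.9 to 107) and adipocytes (0.0819 to 0.450 and 0.0283 to 0.118) overlapped between the groups, as did those of macrophages (21.1 to 28.4 and 17.6 to 21.9) and erythrocytes (758 to 5609 and 557 to 1437). The rule for calling a gene is given with the first comparison.

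In unstressed cells p53 protein is kept low because MDM2 attaches ubiquitin to it and MDM4 blocks its activation domain. When p53 is stabilised it binds DNA and raises transcription of its targets, Mdm2 among them, which closes a feedback loop. Much of this control acts on the protein, so transcript levels of Trp53 and of its targets are separate measurements. In the heart, p53 is known for its part in the response of cardiomyocytes to hypoxia, DNA damage and pressure overload.

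The sequence through which p53 acts was looked for near the starts of these genes, to show which of them carry it close to the start. The p53 consensus element consists of 2 half-sites of 10 bases, and it was searched in 300-base windows, from 250 bases before to 50 bases after each RefSeq start (GRCm38.p6). The half-sites had to be adjacent, the C and G of each core were required, and up to 3 other mismatches were allowed. The element reads the same on both strands. RefSeq windows were found for 7 of the 10 genes, 10 windows in all, and Zmat3, Trp53inp1 and Rrm2b had none. A match was present in 5 of the 10 windows, belonging to Ccng1, Trp53, Sesn1 and Aen, whose 2 overlapping windows share 1 match. Over all 32851 windows the share with a match was 1.38%, or 441 of 27025 genes. Most of the 10 were chosen as known p53 targets, so the matches in 4 of the 7 genes with windows are no independent evidence. These matches, and that of Cdkn1a, the called gene among the other p53 targets described further on, are printed 5′ to 3′ on the strand of the gene, with the element in capitals:
Ccng1, chr11:40755442-40755501, minus strand: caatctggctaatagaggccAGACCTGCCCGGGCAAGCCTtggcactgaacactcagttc
Cdkn1a, chr17:29090908-29090967, plus strand: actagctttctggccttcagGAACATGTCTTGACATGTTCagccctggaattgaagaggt
Trp53, chr11:69580264-69580323, plus strand: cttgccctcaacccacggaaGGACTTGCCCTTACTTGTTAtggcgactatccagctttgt
Sesn1, chr10:41887246-41887305, plus strand: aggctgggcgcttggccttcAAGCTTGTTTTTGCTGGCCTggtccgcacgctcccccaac
Aen, chr7:78895932-78895961, plus strand: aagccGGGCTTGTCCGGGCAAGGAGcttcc

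The element of Ccng1 lay 195 to 176 bases before its start, and that of Cdkn1a 51 to 32 bases before the RefSeq start on which its window was set. Each differed from the consensus at 1 position, a match that 22 of the 32851 windows reached (0.067%). The elements of Trp53, Sesn1 and Aen had 3 mismatches. In Trp53 the element lay 75 to 56 bases before the start, in Sesn1 173 to 154 bases before a start inside the gene, and in Aen 11 to 30 bases after one start and 121 to 102 bases before another. The windows of Mdm2, Mdm4 and Phlda3 held no such match. Cdkn1a was printed because it was called. Of the windows of the other p53 targets, 5 of 38 held a match, in Cdkn1a, Gtse1, Bbc3, Tigar and Gpx1. The element of Gtse1, from 1 base before to 19 bases after its start, also had 1 mismatch. Those of Bbc3, Tigar and Gpx1 had 3. By estimate Gtse1 and Gpx1 were lower in Mc4r KO (log2 fold change -0.22 and -0.20, limma). Bbc3 and Tigar were higher (0.088 and 0.26), and of the 5 only Cdkn1a was called. A match describes these letters only and was not tested for binding, and elements with a spacer or farther from the start were not searched.

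Levels were compared between the groups with limma on log2(FPKM + 0.1) over the 18035 genes whose FPKM averaged 0.1 or more. A gene was called when its adjusted p was under 0.05 and its log2 fold change was beyond 0.75 in either direction. All 10 genes passed the filter. Limma called 0 of the 10, while 0.46% of all genes tested were called. At an unadjusted p under 0.05 there was 1 of the 10, Trp53, which was lower in Mc4r KO, while 20.9% of all genes tested reached that level and 8.83% did so as lower. Limma voom on the recovered reads also called 0 of the 10, beside 1.76% of all genes tested. The log2 fold changes were positive for 5 of the 10 and negative for the other 5, with a median of -0.034 beside -0.011 over all genes tested. For 9 of the 10 the 95% interval of the log2 fold change included 0 and lay inside the threshold of 0.75 in both directions. A p that misses the threshold does not show that the groups were alike, and the intervals give the differences that these libraries leave possible. The exact permutation test of 3 libraries against 3 cannot give a two-sided p below 0.1.

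**Figure D1:**
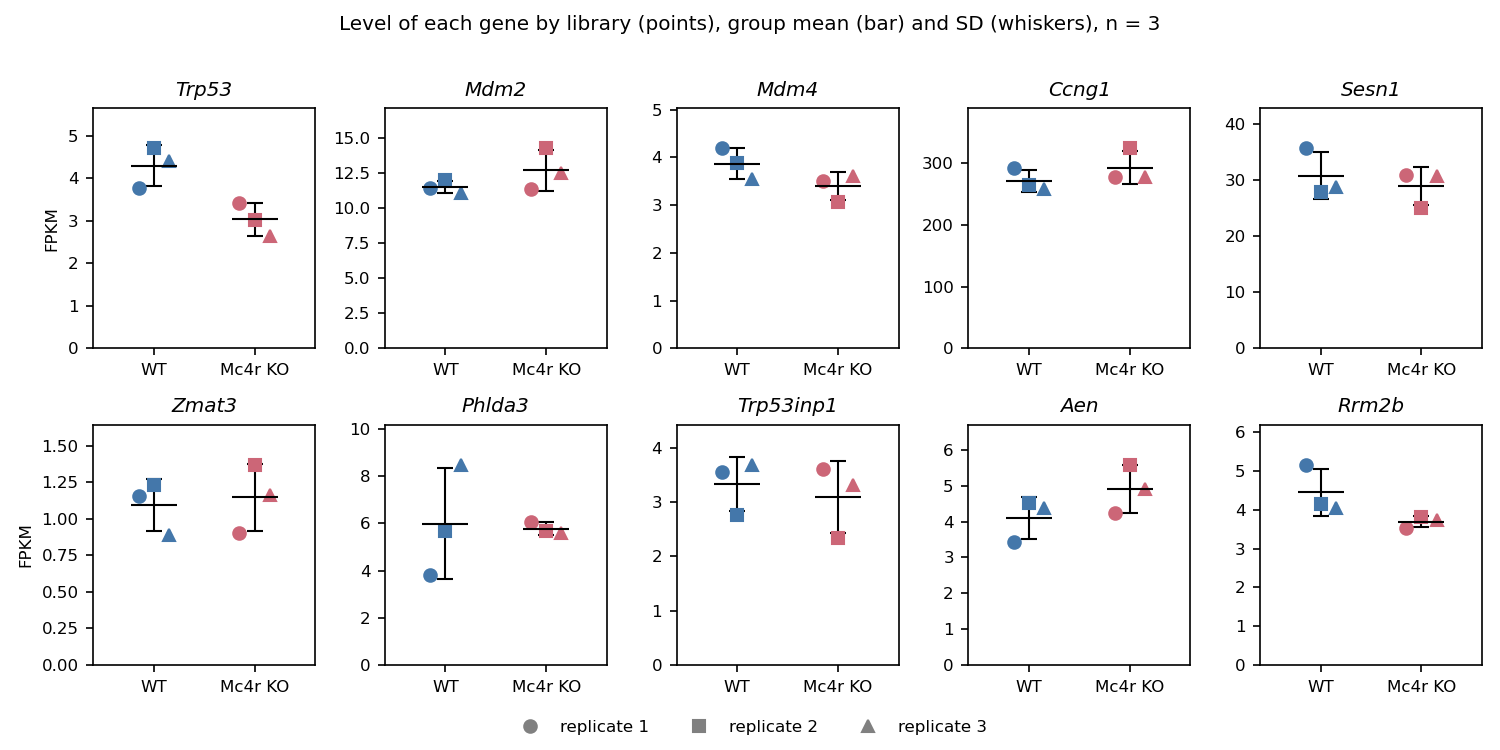
FPKM of each of the 10 genes by library, with WT in blue and Mc4r KO in red, points for single libraries, bars for group means and whiskers for the SD of 3 libraries, each axis starting at 0. Only in Trp53 and Rrm2b did the groups not overlap, with Trp53 between 3.77 and 4.70 in WT and between 2.65 and 3.42 in Mc4r KO.

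Trp53 (ENSMUSG00000059552; mm10, chromosome 11, 69580359 to 69591873, plus strand) had an FPKM of 3.77, 4.70 and 4.41 in WT replicates 1, 2 and 3. It had 3.42, 3.03 and 2.65 in Mc4r KO replicates 1, 2 and 3. Every Mc4r KO library was below every WT library, and the narrowest gap was that between WT replicate 1 and Mc4r KO replicate 1. These values rest on 172 to 304 reads per library, for which counting error alone gives a coefficient of variation of 6.63%, against 11.1% observed in WT and 12.8% in Mc4r KO. The log2 fold change was -0.49 (95% interval -0.82 to -0.16, SE 0.14), a fitted ratio of 0.712, and it did not pass the adjustment over all genes (adjusted p = 0.124, limma; unadjusted p = 0.00921). The exact permutation p was 0.1. The interval did not include 0 and its lower end passed the fold threshold of 0.75.

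Under the 19 alternatives the log2 fold change of Trp53 stayed negative, from -0.68 to -0.39, and its adjusted p (limma) ran from 0.0685 to 0.453. Alternatives that change only the genes tested or the error term leave the estimate itself as it is. Trp53 shares 3.64% of its 50-base words with the pseudogene Trp53-ps, and its exons overlap no other annotated gene. In bulk tissue, fewer cells of a type and less RNA per cell cannot be told apart. The summed FPKM of the 2 markers of dividing cells, Mki67 and Top2a, was 0.945 to 1.16 in WT and 0.337 to 0.764 in Mc4r KO, lower in every Mc4r KO library as Trp53 was. That of the 3 fibroblast markers was 137 to 146 in WT and 103 to 113 in Mc4r KO, with 2 of the 3 lower by estimate and 1 higher. The 3 B cell markers were all lower by estimate, with overlapping sums of 0.459 to 1.77 in WT and 0.107 to 0.511 in Mc4r KO. None of these 8 markers was at 0 reads in all libraries. The 3 markers each of macrophages, erythrocytes and atrium were also all lower by estimate, and their sums overlapped too. The part of these cell types in the lower Trp53 level was not tested.

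Mdm2 (chromosome 10, 117688875 to 117710758, minus strand) encodes the ubiquitin ligase that marks p53 for degradation. Its FPKM was 11.4, 12.0 and 11.1 in WT and 11.3, 14.2 and 12.5 in Mc4r KO, from 817 to 1099 reads. Mc4r KO replicate 1 lay within the WT range and the other 2 Mc4r KO libraries above it. The log2 fold change was 0.14 (95% interval -0.11 to 0.38, SE 0.10; adjusted p = 0.503, limma), so the upper bound corresponds to a ratio of 1.30.

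Mdm4 (chromosome 1, 132959484 to 133030561, minus strand), the paralog that binds and silences p53 without degrading it, was at 4.19, 3.88 and 3.54 in WT and at 3.52, 3.07 and 3.61 in Mc4r KO. The highest Mc4r KO library exceeded the lowest WT library, so the groups overlapped. Its log2 fold change was -0.18 (95% interval -0.46 to 0.095, SE 0.12; adjusted p = 0.425, limma). Mdm4 shares 7.30% of its 50-base words with the pseudogene Mdm4-ps.

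The FPKM of Mdm2 was above that of Mdm4 in all 6 libraries, on joined exon lengths of 5083 and 14798 bases. Their reads overlapped, at 817 to 1099 for Mdm2 and 691 to 892 for Mdm4, so this order rests on the lengths. The ratio of Mdm2 to Mdm4 was 2.72, 3.08 and 3.13 in WT (mean 2.98 ± 0.225, SD, n = 3) and 3.22, 4.63 and 3.46 in Mc4r KO (mean 3.77 ± 0.752, SD, n = 3). The groups did not overlap, and the difference in the log2 ratio was 0.32 (exact permutation p = 0.1, two-sided, the smallest that this design allows). The nearest libraries were WT replicate 3 at 3.13 and Mc4r KO replicate 1 at 3.22. That gap is within counting error, which was 3.25% for Mdm2 and 3.48% for Mdm4. How often such ratios fail to overlap over other gene pairs was not computed. The difference in the log2 ratio was between 0.17 and 0.43 when each library was left out in turn, the lowest without Mc4r KO replicate 2, whose ratio was the highest. The ratio of Mdm2 to Trp53, chosen after its values were seen and so given as a description, was 3.02, 2.55 and 2.51 in WT and 3.31, 4.70 and 4.71 in Mc4r KO. The ratio of Mdm4 to Trp53 was 1.11, 0.826 and 0.802 in WT and 1.03, 1.02 and 1.36 in Mc4r KO, with overlap. A ratio within a library shows that 2 transcripts differed unequally, not which of them did.

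**Figure D2:**
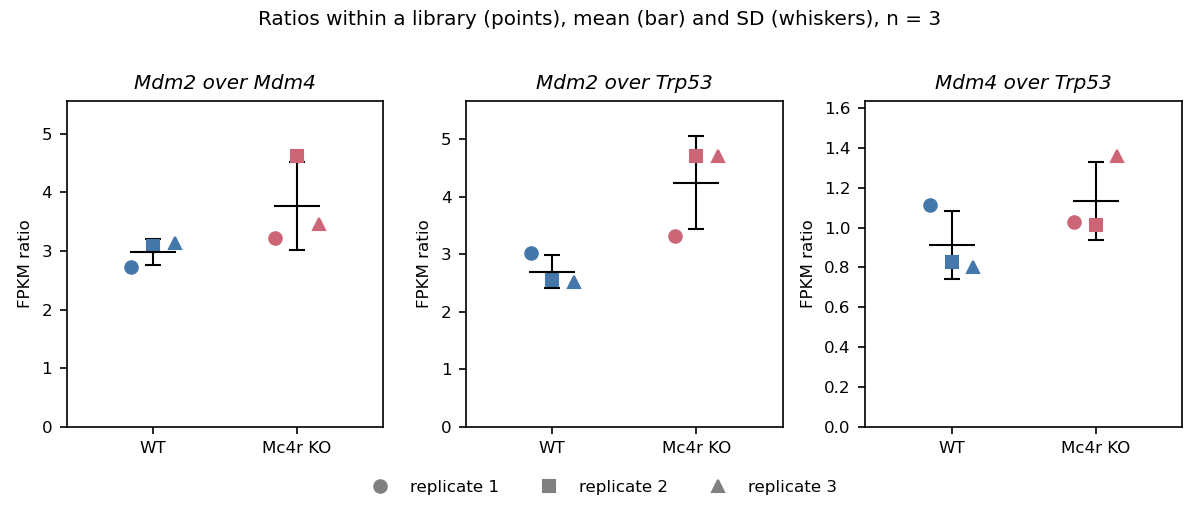
Ratios of FPKM within each library for Mdm2 over Mdm4, Mdm2 over Trp53 and Mdm4 over Trp53, with points for libraries, bars for group means and whiskers for the SD of 3 libraries. The Mdm2 over Mdm4 ratio lay between 2.72 and 3.13 in WT and between 3.22 and 4.63 in Mc4r KO.

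Ccng1 (chromosome 11, 40748552 to 40755311, minus strand) encodes cyclin G1, which brings a phosphatase to MDM2 and takes part in the feedback on p53. The most abundant of the 10, it was at 291, 264 and 257 FPKM in WT and at 276, 323 and 277 in Mc4r KO. Its 13304 to 17231 reads per library put counting error at 0.812%, below the coefficients of variation of 6.66% in WT and 9.14% in Mc4r KO. The groups overlapped, with WT replicate 1 above 2 of the 3 Mc4r KO libraries. The log2 fold change was 0.11 (95% interval -0.14 to 0.36, SE 0.11; adjusted p = 0.588, limma). The upper bound of this interval corresponds to a ratio of 1.28.

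Sesn1 (chromosome 10, 41809935 to 41908424, plus strand) encodes sestrin 1, a stress protein that restrains mTORC1. Its FPKM was 35.6, 27.9 and 28.8 in WT and 30.9, 25.0 and 30.7 in Mc4r KO. WT replicate 1 was the highest library and Mc4r KO replicate 2 the lowest, with the other 4 between 27.9 and 30.9. Its log2 fold change was -0.089 (95% interval -0.40 to 0.22; adjusted p = 0.737, limma).

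Trp53inp1 (chromosome 4, 11156431 to 11174379, plus strand), a nuclear protein that promotes p53 phosphorylation and autophagy, was at 3.56, 2.75 and 3.68 in WT and 3.61, 2.34 and 3.32 in Mc4r KO. The 2 replicates numbered 2 were the lowest of their groups. The log2 fold change was -0.12 (95% interval -0.57 to 0.34; adjusted p = 0.772, limma), and it turned to 0.066 without Mc4r KO replicate 2.

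Aen (chromosome 7, 78895854 to 78911209, plus strand) encodes a nuclease that degrades DNA during apoptosis. It was at 3.44, 4.52 and 4.37 FPKM in WT and 4.25, 5.58 and 4.90 in Mc4r KO. The highest 2 libraries were Mc4r KO and the lowest was WT replicate 1, but Mc4r KO replicate 1 fell between the WT libraries. Aen had the largest positive estimate of the 10, a log2 fold change of 0.25 (95% interval -0.10 to 0.61, SE 0.15; adjusted p = 0.39, limma). It stayed positive under all 19 alternatives, from 0.061 to 0.35, without passing the threshold in any of them. Those that change only the genes tested or the error term could not turn its sign.

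Zmat3 (chromosome 3, 32334792 to 32366014, minus strand), a zinc finger protein that binds RNA, was the least abundant of the 10. Its FPKM was 1.16, 1.24 and 0.893 in WT and 0.907, 1.37 and 1.17 in Mc4r KO, from 161 to 238 reads. The groups spanned nearly the same range, with a log2 fold change of 0.055 (95% interval -0.43 to 0.54; adjusted p = 0.909, limma).

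Phlda3 (chromosome 1, 135766119 to 135769136, plus strand) encodes a small protein that competes with AKT for membrane lipids. It varied more among the WT libraries than any other of the 10, at 3.82, 5.67 and 8.47 FPKM, a coefficient of variation of 39.1%. In Mc4r KO it was at 6.07, 5.66 and 5.60, a coefficient of variation of 4.50%, and the 3 values fell inside the WT range. Its 84 to 225 reads give a counting error of 8.37%. The log2 fold change was 0.021 (95% interval -0.59 to 0.63; adjusted p = 0.979, limma), and over the 19 alternatives it ran from -0.74 to 0.30. The sum of the 3 atrial markers was 0.424, 43.0 and 433 FPKM in WT replicates 1, 2 and 3 and 55.4, 0.884 and 0.824 in the Mc4r KO replicates, so that WT replicate 3 was highest in both. The part of atrial tissue in the spread of Phlda3 was not tested.

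Rrm2b (chromosome 15, 37923952 to 37961318, minus strand) encodes the p53-induced subunit of ribonucleotide reductase, which supplies DNA precursors for repair and for mitochondrial DNA. It was at 5.16, 4.15 and 4.06 FPKM in WT and 3.53, 3.82 and 3.73 in Mc4r KO. Every Mc4r KO library was below every WT library, and WT replicate 1 stood above the rest. Its log2 fold change was -0.26 (95% interval -0.54 to 0.033, SE 0.12; adjusted p = 0.29, limma; exact permutation p = 0.1). It was -0.15 without WT replicate 1 and -0.056 with the mitochondrial share as a covariate. Gm49085, transcribed from the other strand, shares 8.04% of the exonic bases of Rrm2b, and reads from the 2 genes cannot be told apart there unless strand was used in counting.

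Trp53 and Rrm2b were thus the 2 of the 10 genes whose groups did not overlap, and both were lower in Mc4r KO. Over all genes tested the groups did not overlap in 26.4%, and 12.4% were lower in this way. The 2 of 10 are close to that background.

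**Figure D3:**
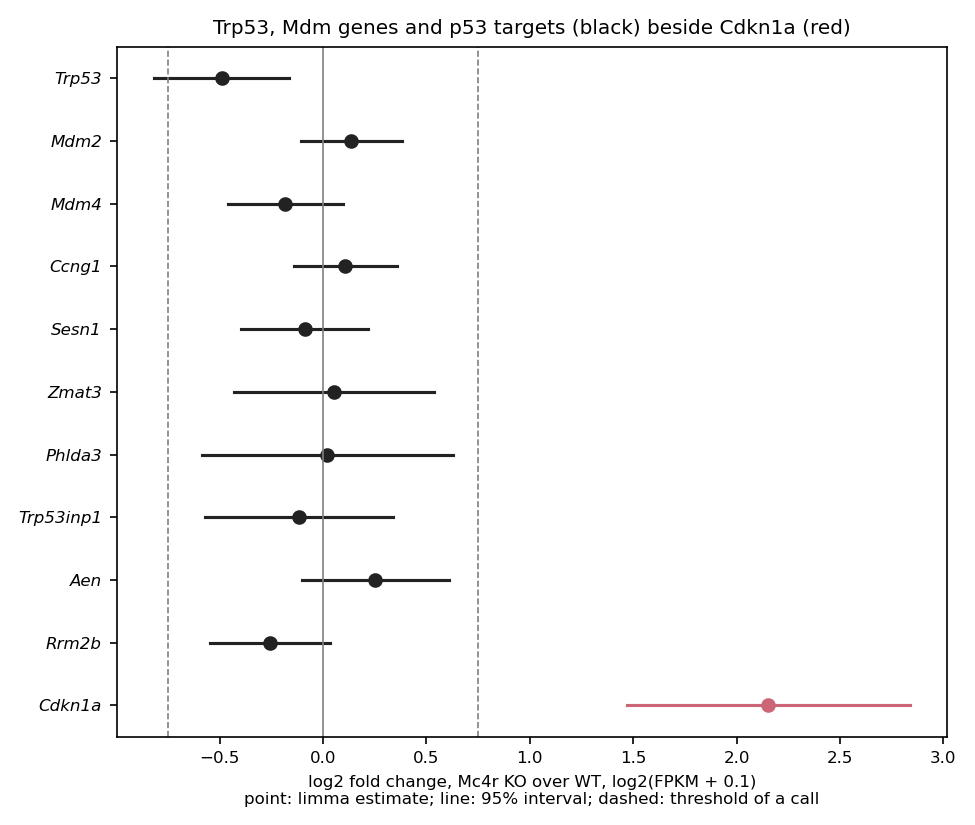
Log2 fold change of Mc4r KO over WT on the log2(FPKM + 0.1) scale for the 10 genes in black and Cdkn1a in red, with the limma estimate as a point and its 95% interval as a line. The estimates of the 10 lie between -0.49 and 0.25, and that of Cdkn1a is 2.15.

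Per length, the mean level over the 6 libraries fell from Ccng1 (281 FPKM) to Sesn1 (29.8), Mdm2 (12.1), Phlda3 (5.88), Aen (4.51), Rrm2b (4.08), Trp53 (3.66), Mdm4 (3.64), Trp53inp1 (3.21) and Zmat3 (1.12). Ccng1 was 9.44 times Sesn1, and alone it made up 78.8% to 83.4% of the summed FPKM of the 10 genes. The first 3 genes in this order were separated from the next in all 6 libraries, as was Zmat3 at the end. From Phlda3 to Trp53inp1 the ranges of neighbours overlapped. Trp53 and Mdm4 had nearly the same mean on joined exon lengths of 4045 and 14798 bases, with Trp53 higher in 2 of the 6 libraries, both of them WT. Among all genes tested, Ccng1 was at the 99.3rd percentile of mean level, Sesn1 at the 93.8th, Trp53 at the 61.9th and Zmat3 at the 39.2nd.

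Single libraries were high for some of the genes and low for others. Mc4r KO replicate 2 was the highest of the 6 libraries for Mdm2, Ccng1, Zmat3 and Aen and the lowest for Mdm4, Sesn1 and Trp53inp1. WT replicate 3 was the lowest for Mdm2, Ccng1 and Zmat3 and the highest for Phlda3 and Trp53inp1. WT replicate 1 was the highest for Mdm4, Sesn1 and Rrm2b. Mc4r KO replicate 2 had 15535174 reads on genes and a mitochondrial share of 46.6%, the highest of its group, and WT replicate 3 had 16047003 reads and a share of 47.1%, the lowest of its group.

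Other known p53 targets gave a mixed picture around a single call. A list of 38 held 37 genes that passed the filter, and Ptprv, with 27 reads over the 6 libraries, did not. Limma called 1 of the 37, Cdkn1a, and 0.316% of all genes tested were called as higher. Limma voom called 5, with Cdkn1a, Aifm2 and Ddit4 higher and Eda2r and Igfbp3 lower, beside 1.76% of all genes tested. At an unadjusted p under 0.05, 5 were higher, beside 12% of all genes, and 6 were lower, beside 8.83%. By estimate 13 were higher and 24 lower, with a median log2 fold change of -0.16 beside -0.011 over all genes tested.

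Cdkn1a (chromosome 17, 29090976 to 29100727) encodes p21, the inhibitor of cyclin-dependent kinases through which p53 halts the cell cycle. Its FPKM was 2.42, 3.57 and 5.34 in WT and 14.4, 14.1 and 21.4 in Mc4r KO, without overlap. The log2 fold change was 2.15 (95% interval 1.47 to 2.84, SE 0.29; adjusted p = 0.0415, limma), so that its lower bound lay above the upper bound of each of the 10 genes. The call was lost under 8 of the 19 alternatives, namely without a filter, with quantile normalization, with the mitochondrial share as a covariate and without any 1 library other than WT replicate 3. In 7 of these 8 the log2 fold change was between 1.88 and 2.26, and with the mitochondrial share as a covariate it was 1.31. Its adjusted p (limma) ran from 0.00329 to 0.244 over the 19 alternatives. Set against Ccng1, the other gene with an element of 1 mismatch printed above, Cdkn1a amounted to 0.83%, 1.35% and 2.08% of the Ccng1 level in WT and to 5.20%, 4.36% and 7.71% in Mc4r KO. This ratio was chosen after the values were seen and is given as a description. AC167363.2, transcribed from the other strand, shares 7.68% of its exonic bases.

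Of the 8 cell cycle genes tested the 7 beside Cdkn1a had negative estimates, among them Btg2, an antiproliferative gene, at 18.5 ± 3.69 FPKM in WT and 12.0 ± 0.279 in Mc4r KO (SD, n = 3 each; log2 fold change -0.60, adjusted p = 0.0949, limma). Among 12 apoptosis genes 6 estimates were positive and 6 negative. Fas, the death receptor, was at 7.52, 6.80 and 7.53 in WT and 11.5, 10.3 and 10.9 in Mc4r KO, without overlap (log2 fold change 0.58, adjusted p = 0.0514, limma). Aifm2, the flavoprotein also known as FSP1, was at 5.97 ± 0.707 against 10.1 ± 1.16 (SD, n = 3 each; log2 fold change 0.75, adjusted p = 0.0579, limma). Limma called neither, and limma voom called Aifm2. Eda2r, a receptor of the tumor necrosis factor family named here after its values were seen, went the other way by estimate (log2 fold change -0.82, 95% interval -1.24 to -0.40, adjusted p = 0.0854, limma).

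All 5 DNA repair genes had negative estimates and none reached an unadjusted p under 0.05. Xpc, which recognises damaged DNA, had a log2 fold change of -0.19 (adjusted p = 0.394, limma) and Polk, a translesion polymerase, of -0.27 (adjusted p = 0.49). In metabolism and stress, 4 of 7 were positive. Ddit4, the mTORC1 inhibitor REDD1, was at 31.4 ± 12.5 in WT and 59.2 ± 12.5 in Mc4r KO (SD, n = 3 each; log2 fold change 0.96, adjusted p = 0.13, limma), with overlap through WT replicate 3 at 45.8. Dram1, a lysosomal protein of autophagy, had a log2 fold change of -0.37 (adjusted p = 0.216, limma). Among 5 secreted and surface proteins, Igfbp3 was at 14.5 ± 1.23 in WT and 8.28 ± 2.23 in Mc4r KO (SD, n = 3 each; log2 fold change -0.83, adjusted p = 0.0995, limma).

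**Figure D4:**
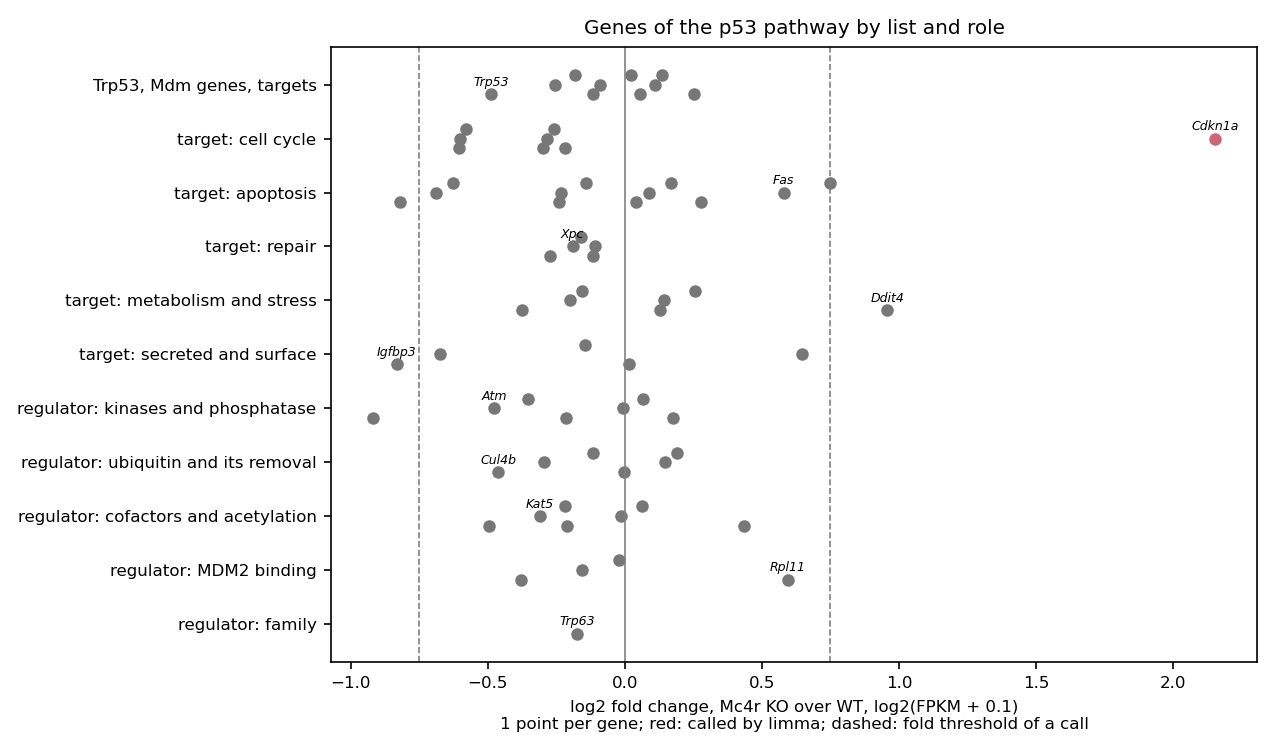
Log2 fold change of Mc4r KO over WT on the log2(FPKM + 0.1) scale, 1 point per gene, for the 10 genes, 37 other p53 targets and 25 regulators of p53 by role, with the called gene in red and the gene of smallest adjusted p in each role labelled. Cdkn1a, at 2.15, is the 1 red point, and the 10 genes lie inside the dashed lines at the fold threshold.

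Genes that act on p53 or on MDM2 formed a list of 26, of which 25 passed the filter and Trp73, with 1 read over the 6 libraries, did not. Limma called 0 of the 25, with 2 higher and 4 lower at an unadjusted p under 0.05, and 0 were called by limma voom. The shares over all genes tested were 0.46% called, 12% higher and 8.83% lower at that unadjusted p, and 1.76% called by limma voom. By estimate 7 were higher and 18 lower, with a median log2 fold change of -0.16. The smallest adjusted p belonged to Cul4b, a scaffold of ubiquitin ligases, at 4.79 ± 0.742 FPKM in WT and 3.43 ± 0.300 in Mc4r KO (SD, n = 3 each; log2 fold change -0.46, adjusted p = 0.142, limma). Usp7, which removes ubiquitin from MDM2 and p53, was at 10.1 ± 0.846 against 8.24 ± 0.432 (SD, n = 3 each; log2 fold change -0.29, adjusted p = 0.16, limma). Atm, the kinase that signals DNA double-strand breaks to p53, was at 1.80 ± 0.362 against 1.25 ± 0.114 (SD, n = 3 each; log2 fold change -0.48, adjusted p = 0.198, limma). In these 3 genes every Mc4r KO library was below every WT library. They were picked by their small adjusted p, and over all genes tested 12.4% were lower in this way. The groups did not overlap in 11 of the 25 regulators in either direction, and over all genes tested this held for 26.4%. The 11 were not split by direction.

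The genes whose profile over the 6 libraries was most like that of Trp53 were sought among the 10219 protein-coding genes whose FPKM averaged 1 or more, as the root mean square difference of centred log2(FPKM + 0.1). They were Col15a1, Spats2l, Trp53i11, Rp2 and Disp1, with differences of 0.053 to 0.078. Col15a1, a collagen of basement membranes, was at 14.3, 18.6 and 17.0 in WT and 14.1, 12.9 and 10.5 in Mc4r KO. Those most like Mdm2 were Hspd1, Adsl, Ddx24, 2310061I04Rik and Ckm, with differences of 0.028 to 0.040, and Hspd1, the mitochondrial chaperonin HSP60, shared the high value in Mc4r KO replicate 2 (167 FPKM, against 131 to 147 in the other 5 libraries). Over 6 libraries such likeness is a description only.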

How the data were processed

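The authors filtered paired-end reads, aligned them with HISAT2 (version 2.0.5, mm10 per the labels), counted genes with featureCounts and deposited FPKM for each gene and library. Which annotation release was used, and whether strand was used in counting, is not given in the sources used here. Gene positions and lengths come from the deposited table, and 99.9% of its identifiers are in GENCODE M21, which gave overlaps and shared 50-base words. Multiplied by gene length and divided by a constant of each library, FPKM came out whole for 100% of the values (within 0.05 reads), and these whole numbers were taken as reads. With paired-end sequencing each may stand for a read pair. In all, 0 columns of per-library values were left unmatched.

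The main test was limma (version 3.58.1, R 4.3.3) with trend on log2(FPKM + 0.1), all 6 libraries, no covariate, a mean FPKM of 0.1 or more, Benjamini-Hochberg adjustment over all genes, two-sided. Fold changes on this scale understate those of weakly expressed genes. The code was run on simulated counts with the same spread setting for every gene and no difference in tissue content between libraries. That run does not show how the test performs on these data. Each library is 1 mouse, and reads without molecular identifiers carry more than counting error. The members and lists were chosen with earlier results of these data known, so neither counts nor directions are independent evidence. All 10 genes are named, and of the lists each called gene, the 2 smallest adjusted p per role of the targets and the 3 smallest of the regulators; 1 gene that this rule names is not reported here. Markers of 11 cell types or states were summed. Alternatives were pseudocounts of 1 and 0.01, no filter, a mean FPKM of at least 1, quantile, median-of-ratios and non-mitochondrial scaling, robust empirical Bayes, array weights, limma voom, a replicate block, the mitochondrial share as a covariate, protein-coding genes only, and each library left out. Figures used Python 3.11.15 and matplotlib 3.10.9.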

Additional observations from a re-analysis of the deposited data

How the results depend on the processing

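The number of the 10 genes called by limma was 0 under all 19 alternatives, and their log2 fold changes kept their direction in 174 of 190 values. That count includes settings that could not turn a sign. No filter, a mean FPKM of at least 1, protein-coding genes only, robust empirical Bayes and the replicate block left each estimate unchanged. Median-of-ratios scaling, with a factor of 1.00583 in all 6 libraries, left them nearly so, because the deposited values were already level by that measure. The number of all genes called, 83, was 44 with a pseudocount of 1, 22 without a filter, 147 at a mean FPKM of at least 1, 49 after quantile normalization, 41 with scaling outside the mitochondrial chromosome, 435 with array weights, 317 with limma voom, 2 with the mitochondrial share as a covariate and 204 over protein-coding genes. Leaving out 1 library gave 0 to 632 calls, with 632 without WT replicate 3, 7 without Mc4r KO replicate 1, 2 without Mc4r KO replicate 2 and 0 by limma without WT replicate 1, WT replicate 2 or Mc4r KO replicate 3, where 2600, 2830 and 2828 genes had an unadjusted p under 0.05. With the replicate block 11 genes were called, none of the 10 among them. Same-numbered libraries did not deviate together from their group means (r = -0.14, 0.0074 and -0.082 across genes), so the numbers were not taken as pairs. Scaling outside the mitochondrial chromosome moved the median of all genes from -0.011 to -0.19 and the split of calls from 57 higher and 26 lower to 16 higher and 25 lower. With it Mdm2 was at -0.057, Ccng1 at -0.087, Zmat3 at -0.13 and Phlda3 at -0.17, each turned in sign but less negative than that median. Ccng1 was at -0.13 and Phlda3 at -0.014 after quantile normalization, Zmat3 at -0.026 with array weights, and Phlda3 at -0.0069 with limma voom and -0.74 with the mitochondrial share as a covariate. With each library left out, Sesn1 ran from -0.15 to 0.020, Zmat3 from -0.073 to 0.20, Phlda3 from -0.26 to 0.30 and Trp53inp1 from -0.24 to 0.066. The median of the 10 was -0.12 after quantile normalization, -0.23 with scaling outside the mitochondrial chromosome and -0.078 to 0.023 with a library left out. That of the other targets was -0.090 with a pseudocount of 1, -0.13 at a mean FPKM of at least 1 and -0.34 with that scaling. That of the regulators was -0.068, -0.020 and -0.31 under the same settings and -0.059 with the mitochondrial share as a covariate. The cause of these shifts was not tested. Depth limits Phlda3, Zmat3 and Trp53 most, with counting errors of 8.37%, 7.14% and 6.63% per library.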
